A study of Mus musculus with 6 samples.

Results

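The lysyl hydroxylases and lysyl oxidases are the enzymes that prepare and start the covalent cross-linking of collagen fibrils, the reaction that gives tendon its strength. The 9 genes described here are the 3 lysyl hydroxylase genes *Plod1*, *Plod2* and *Plod3*, *Fkbp10*, which encodes the chaperone FKBP65, and the 5 lysyl oxidase genes *Lox*, *Loxl1*, *Loxl2*, *Loxl3* and *Loxl4*. The family was chosen on the measured rise of *Plod2* in *Mkx*-/- tendons, so the genotype differences of its members are given below as descriptions with no p-value. They are 9 of 44788 gene symbols in the count table, and all 9 were among the 14550 genes that passed the filter on low counts.

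Lysyl hydroxylases act on procollagen in the endoplasmic reticulum (ER), where they turn lysines into hydroxylysines. LH1 (*Plod1*) acts mainly on lysines of the triple helix, LH2 (*Plod2*) on lysines of the telopeptides at the ends of the molecule, and LH3 (*Plod3*) also adds sugars to hydroxylysine. FKBP65 works with LH2, and loss of either protein causes Bruck syndrome, a brittle bone disease with joint contractures. Outside the cell, copper-dependent lysyl oxidases oxidize lysines and hydroxylysines of collagen and elastin to aldehydes, which then condense into cross-links, and hydroxylysine in the telopeptides gives the more stable ketoimine-type bonds. *Plod2* is transcribed as splice forms that differ in their substrate preference, and *Plod2*, *Lox*, *Loxl2* and *Loxl4* are known to respond to hypoxia and to transforming growth factor beta (TGF-beta) in several cell types.

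Bulk RNA-seq was performed on tail tendons of C57BL/6 mice labelled as 3 weeks old, in 3 WT and 3 *Mkx*-/- libraries. *Mkx* encodes Mohawk, a homeobox transcription factor of tendon cells. The paper's text gives an older age. The *Mkx*-/- line came from another laboratory, the sources used here do not say how the allele was made, and no other allele or agent was given for either group. The labels do not say whether each library came from 1 mouse or from a pool, so p-values measure only the spread between these libraries.

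The libraries held 10835070 to 14160301 counts, and the 9 genes together took 0.588% to 0.721% of the counts in WT and 0.411% to 0.504% in *Mkx*-/- libraries. Levels are given as normalized CPM, the counts of a gene relative to library size, scaled with edgeR's TMM method, because *Col1a1*, *Col1a2* and *Sparc* alone held 42% to 48.5% of the WT counts and 28.3% to 34.8% of the *Mkx*-/- counts. *Mkx* itself was at 144, 136 and 135 CPM in WT and at 56.8, 41.4 and 38.9 CPM in *Mkx*-/- libraries (log2 fold change -1.60, edgeR adjusted p = 0.00183), and the counts do not show which exons the remaining reads came from. Tendon marker genes were abundant, with *Tnmd*, which encodes tenomodulin, at 1080 ± 148 CPM and *Dcn*, which encodes decorin, at 4350 ± 404 CPM in WT (SD, n = 3). These 2 genes had log2 fold changes of -0.02 and -0.03, but 8 of 11 tendon markers were lower in *Mkx*-/- libraries (median -0.42). The tendon list summed to 383000 to 525000 CPM in WT and 246000 to 341000 CPM in *Mkx*-/- libraries, mostly *Col1a1* and *Col1a2*. Of 14 skeletal muscle markers 13 were higher in *Mkx*-/- libraries, with a summed level of 102 to 434 CPM in WT and 590 to 3080 CPM in *Mkx*-/- libraries. Also higher were most markers of Schwann cells (7 of 7, summed 8110 to 10700 CPM in WT and 12600 to 23400 CPM in *Mkx*-/-), endothelium (8 of 10), cartilage (7 of 9 tested, 1310 to 1800 and 1950 to 2620 CPM) and epidermis (5 of 5 tested, 13.7 to 26.8 and 42.1 to 52 CPM). *Comp*, which is also in the tendon list, held 694 to 762 CPM of the cartilage sums in WT and 997 to 1810 CPM in *Mkx*-/-. *Col2a1*, the next largest part, overlapped between the groups (log2 fold change -0.08). Of the 9 tested cartilage markers, 3 less abundant ones had log2 fold changes of 1.45 to 3.47, each with an edgeR adjusted p under 0.05. Of these 3, *Acan* reached the highest knockout mean, 147 CPM against a WT mean of 32 CPM (log2 fold change 2.20, adjusted p = 0.0038). Of 10 macrophage and leukocyte markers 0 were higher (495 to 535 and 308 to 373 CPM), and of smooth muscle and pericyte markers 4 of 6 tested (330 to 397 and 305 to 1060 CPM). *Mkx*-/- replicate 3 stood apart in the latter, with *Myh11*, a smooth muscle myosin gene, at 202 CPM where the other 5 libraries had 1.97 to 2.75 CPM. Only 2 of 9 osteoblast and osteocyte markers and 2 of 7 adipocyte markers had enough counts to be tested, and all 4 were higher. WT replicate 3 was the only male library by its counts of the sex-linked genes *Xist* (1) and *Ddx3y* (301). The other 5 libraries, among them all 3 *Mkx*-/- libraries, had 1289 to 1866 counts of *Xist* and 0 of *Ddx3y*. Sex was thus not balanced between the groups.

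In WT tendon the members spanned a wide range of expression. Per kilobase of merged exons, *Lox* was the most abundant, at 829 ± 142 CPM per kb (SD, n = 3), followed by *Loxl2* at 337 ± 143 CPM per kb and *Fkbp10* at 195 ± 30.6 CPM per kb. *Loxl4* (74.6 ± 12.1 CPM per kb) and *Plod1* (64.5 ± 7.65 CPM per kb) stood in the middle. *Loxl3* (39.3 ± 5.12), *Plod3* (23.6 ± 1.9) and *Loxl1* (16.4 ± 4.04 CPM per kb) came next, and *Plod2* was the lowest at 2.06 ± 0.0814 CPM per kb. The WT ranges of *Loxl2* and *Fkbp10* overlapped, as did those of *Loxl4* and *Plod1*, and the other neighbours in this order did not overlap. With the length of the longest transcript in place of merged exons, *Plod1* (107 CPM per kb) and *Loxl4* (84.2 CPM per kb) changed places and the other 7 ranks were kept.

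**Figure D1:**
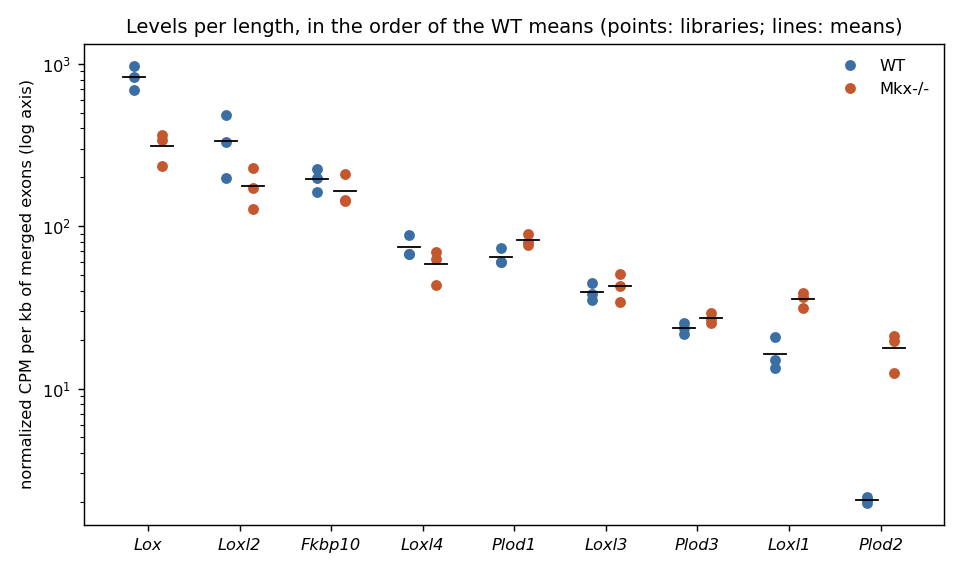
Level of each member per kilobase of merged exons (CPM per kb, log axis) in the 3 WT and 3 *Mkx*-/- libraries, ordered by the WT mean, with points for libraries and lines for means. *Lox* stands at the top in WT (829 CPM per kb) and *Plod2* at the bottom (2.06 CPM per kb), and *Plod2* moves furthest between the genotypes.

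Set side by side, the members did not shift in 1 direction between the genotypes. The threshold for a call was a log2 fold change above 1 (upregulated) or below -1 (downregulated) together with an adjusted p under 0.05 in edgeR's quasi-likelihood test. Of the 9 members, *Plod2* and *Loxl1* met the upregulated threshold, which 1.89% of all tested genes met (275 of 14550), and *Lox* met the downregulated threshold, which 1.33% met (193 of 14550). The other 6 members met neither. All 3 *Mkx*-/- libraries lay above all 3 WT libraries for *Plod1*, *Plod2* and *Loxl1*, as for 14.6% of all tested genes, and below them for *Lox*, as for 13.6%. For the remaining 5 members the groups overlapped. Since *Plod2* chose the family in this contrast, nothing is read from these counts. Every statement here that a member met or lost a threshold is likewise a description and not a test result. The median log2 fold change was 0.12 over the 9 members and -0.004 over all tested genes. In bulk tissue, fewer cells of a type and less RNA per cell cannot be told apart.

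**Figure D2:**
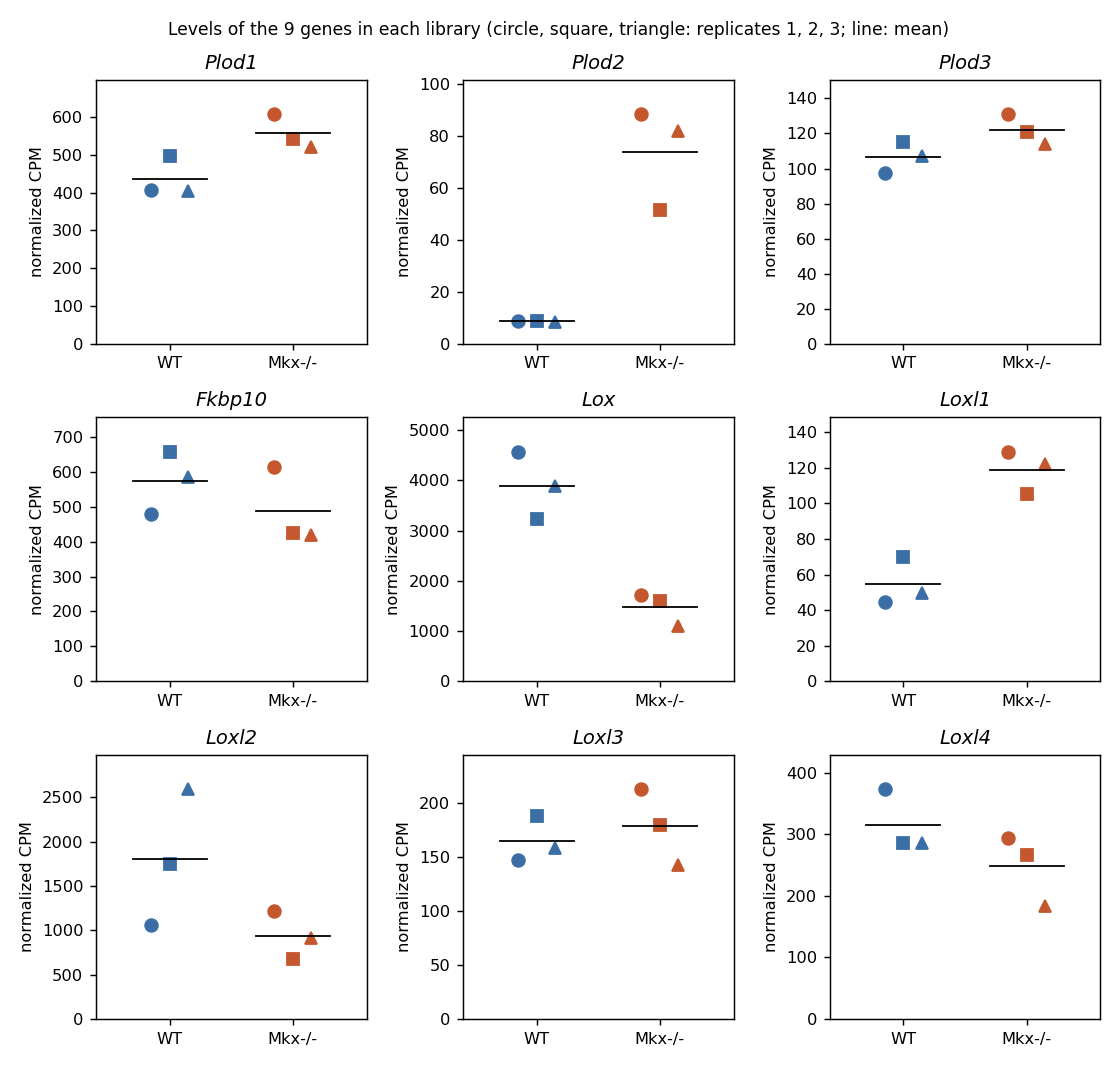
Normalized CPM (linear axes from 0) of the 9 members in each of the 3 WT and 3 *Mkx*-/- libraries, with symbols for replicates and lines for group means. The groups are separate for *Plod1*, *Plod2* and *Loxl1*, which are higher in *Mkx*-/- libraries, and for *Lox*, which is lower, and they overlap for the other 5 members.

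Among the lysyl hydroxylases, *Plod2* (chromosome 9, 92437061 to 92503266, plus strand, mm9) was a scarce transcript in WT and a moderately abundant one in *Mkx*-/- tendons. Its level was 8.59, 8.93 and 8.25 CPM in WT, from 109, 91 and 103 counts, and 88.5, 51.6 and 82.2 CPM in *Mkx*-/- libraries, from 966, 735 and 1037 counts. The lowest *Mkx*-/- library was thus far above the highest WT library. The mean went from 8.59 ± 0.34 to 74.1 ± 19.7 CPM (SD, n = 3), 8.63-fold. Its log2 fold change was 3.11 (standard error 0.22), the 33rd highest of 14550 genes. Among all tested genes, the *Plod2* level stood at percentile 41.4 in WT and at percentile 90.1 in *Mkx*-/- tendons. The 3 WT values had a coefficient of variation of 3.96%, below the 9.95% that counting error alone gives at this depth, and the *Mkx*-/- values one of 26.6%, with replicate 2 the lowest. Counts per gene do not separate the splice forms of *Plod2*.

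Several features of the libraries differed between or within the groups, and the values of *Plod2* are set beside them here. The summed skeletal muscle markers stood at 3080, 1490 and 590 CPM in *Mkx*-/- replicates 1, 2 and 3, beside 88.5, 51.6 and 82.2 CPM of *Plod2*. The library with the most muscle RNA thus also had the most *Plod2*, and the library with the least had nearly as much. The same replicate 3 had the highest sums of *Mkx*-/- libraries for endothelium (154 CPM, against 111 and 113), smooth muscle and pericytes (1060 CPM, against 305 and 336) and Schwann cells (23400 CPM, against 12600 and 20600). With replicate 3 left out, log2 fold changes were 3.03 for *Plod2*, -1.24 for *Lox* and 1.10 for *Loxl1*, and all 3 kept their calls. Without replicate 1 the log2 fold change of *Plod2* was 2.94. Without WT replicate 3, the male library, it was 3.06. The order of the *Mkx*-/- libraries also depended on scaling, since all 9 members were highest in *Mkx*-/- replicate 1 by normalized CPM, as were 33% of all tested genes, but only *Plod1*, *Fkbp10*, *Loxl2* and *Loxl3* were highest there when libraries were scaled by size alone. The part of other cell types in the differences of *Plod2* and the other members was not tested beyond these values.

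*Plod1* (chromosome 4, 147283862 to 147310876, minus strand), the main lysyl hydroxylase transcript, was at 408, 496 and 405 CPM in WT and at 608, 543 and 520 CPM in *Mkx*-/- libraries. The groups did not overlap, but the highest WT library and the lowest *Mkx*-/- library were close. The log2 fold change was 0.35 (standard error 0.14), from 436 ± 51.7 to 557 ± 45.4 CPM (SD, n = 3). *Plod3* (chromosome 5, 137462889 to 137472518, plus strand) was at 97.7, 115 and 107 CPM in WT and at 131, 121 and 114 CPM in *Mkx*-/- libraries. Here the lowest *Mkx*-/- library fell within the WT range, and the log2 fold change was 0.20 (standard error 0.12). An exon of *Znhit1* overlaps *Plod3* on the opposite strand, and the strand setting of the counting is not given in the sources used here, but *Znhit1* had 87 to 155 counts per library where *Plod3* had 1170 to 1725.

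The make-up of the lysyl hydroxylase transcripts therefore differed between the genotypes. Summed per kilobase, the 3 genes stood at 90.1 ± 9.35 (WT) and 127 ± 11.3 (*Mkx*-/-) CPM per kb (SD, n = 3). *Plod2* made up 2.45%, 2.12% and 2.31% of this sum in WT and 15.1%, 10.3% and 16.2% in *Mkx*-/- libraries. *Plod1* held 71.5% ± 1.36 in WT and 64.9% ± 2.1 in *Mkx*-/-, and *Plod3* 26.2% ± 1.3 and 21.3% ± 1.02. Within a library, a ratio of 2 genes does not depend on the scaling between libraries. Per kilobase, there were 29.3, 34.3 and 30.3 *Plod1* reads for each *Plod2* read in WT and 4.24, 6.5 and 3.91 in *Mkx*-/- libraries. *Plod2* thus approached *Plod3*, with 10.5, 11.9 and 12 *Plod3* reads for each *Plod2* read in WT and 1.37, 2.17 and 1.28 in *Mkx*-/- libraries. The ratio of *Plod1* to *Plod3* moved by only 0.16 on the log2 scale.

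*Fkbp10* (chromosome 11, 100277011 to 100286138, plus strand), whose product is the partner of LH2, did not share the pattern of *Plod2*. It was at 478, 657 and 585 CPM in WT and at 614, 425 and 420 CPM in *Mkx*-/- libraries. *Mkx*-/- replicate 1 lay within the WT range and the other two lay below it. The log2 fold change was -0.24 (standard error 0.20), from 573 ± 89.9 to 487 ± 110 CPM (SD, n = 3), and its sign depended on the setting, with values from -0.46 to 0.01. Relative to *Plod1* in the same library, *Fkbp10* was lower by 0.60 on the log2 scale in *Mkx*-/- tendons, with no overlap between the groups. *Nt5c3b* overlaps it on the opposite strand, with 229 to 391 counts beside 5302 to 7297 counts of *Fkbp10*.

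Among the lysyl oxidases, the prototype and most abundant gene was lower in *Mkx*-/- tendons. *Lox* (chromosome 18, 52675723 to 52689521, minus strand) was at 4570, 3230 and 3880 CPM in WT and at 1710, 1600 and 1100 CPM in *Mkx*-/- libraries. Every *Mkx*-/- library was well below the lowest WT library. The mean was 3900 ± 666 CPM in WT and 1470 ± 322 CPM in the knockout (SD, n = 3), 0.377 of the WT level. The log2 fold change was -1.41 (standard error 0.22). Without WT replicate 3 the log2 fold change was -1.42, but *Lox* then no longer met the threshold for the adjusted p. *Lox* kept the highest level per kilobase of the 9 members in both genotypes, at 313 ± 68.5 CPM per kb in *Mkx*-/- tendons.

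*Loxl1* (chromosome 9, 58135530 to 58161019, minus strand), which encodes the oxidase best known for elastic fibre formation, was the only lysyl oxidase gene above its WT range in every *Mkx*-/- library. It was at 44.3, 69.9 and 49.8 CPM in WT and at 129, 105 and 122 CPM in *Mkx*-/- libraries. The mean went from 54.7 ± 13.5 to 119 ± 12.5 CPM (SD, n = 3), 2.17-fold. The log2 fold change was 1.12 (standard error 0.18). It did not meet the threshold without WT replicate 1 (log2 fold change 0.99) or without WT replicate 3 (1.04). The ratio of *Loxl1* to *Lox* within a library was 5.88-fold higher in *Mkx*-/- tendons. There were 73.3, 32.9 and 55.4 *Lox* reads per kilobase for each *Loxl1* read in WT and 9.4, 10.8 and 6.46 in *Mkx*-/- libraries.

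*Loxl2* (chromosome 14, 70008978 to 70095640, plus strand), an oxidase that acts on fibrillar collagens and on collagen IV, varied most among the WT libraries. Its WT levels were 1060, 1750 and 2590 CPM, a coefficient of variation of 42.5%, and its *Mkx*-/- levels were 1220, 677 and 918 CPM. *Mkx*-/- replicate 1 was above WT replicate 1, so the groups overlapped. The log2 fold change of -0.94 (standard error 0.33) did not meet the threshold. It ranged from -0.60 without WT replicate 3 to -1.21 without WT replicate 1, where it did meet it.

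The 2 remaining oxidase genes showed small differences. *Loxl3* (chromosome 6, 82984167 to 83002556, plus strand) was at 147, 188 and 159 CPM in WT and at 213, 180 and 143 CPM in *Mkx*-/- libraries. Its log2 fold change was 0.12 (standard error 0.17), and the sign depended on the setting (-0.05 to 0.37). *Loxl4* (chromosome 19, 42668472 to 42687303, minus strand) was at 373, 286 and 285 CPM in WT and at 294, 266 and 184 CPM in *Mkx*-/- libraries, and its log2 fold change was -0.34 (standard error 0.20). The groups overlapped for both. An exon of *Htra2* overlaps *Loxl3* on the opposite strand and had 488 to 809 counts beside 1800 to 2555 counts of *Loxl3*.

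**Figure D3:**
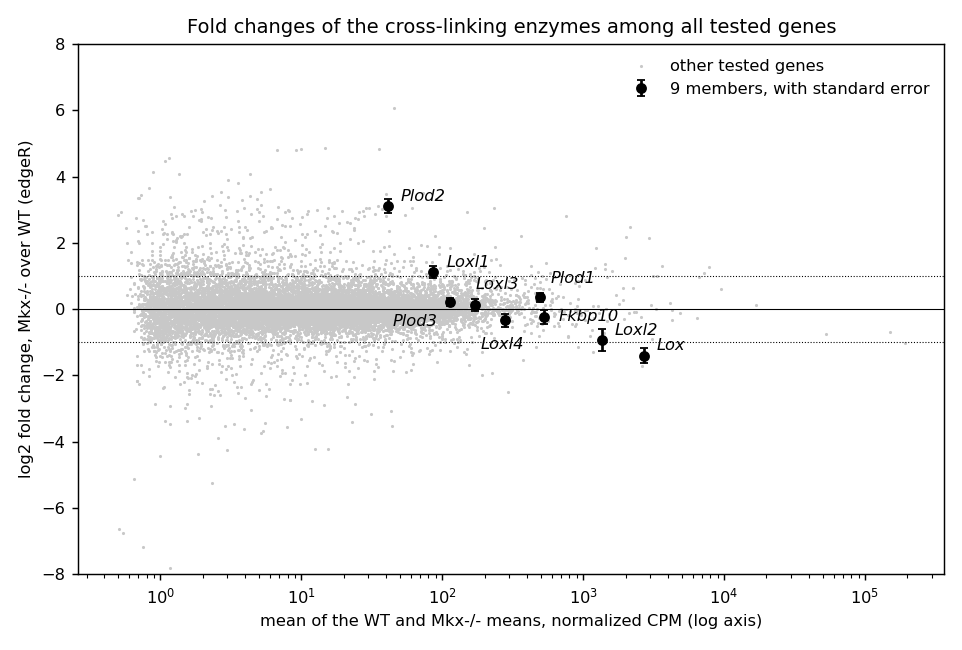
Log2 fold change (*Mkx*-/- over WT, y axis) against mean normalized level (CPM, log x axis) for all 14550 tested genes in grey and the 9 members in black, with bars of 1 standard error. *Plod2* (3.11) and *Loxl1* (1.12) lie above the fold threshold of 1, *Lox* (-1.41) lies below that of -1, and the others lie between.

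Summed per kilobase, the 5 oxidases stood at 1310, 1150 and 1430 CPM per kb in WT and at 751, 604 and 521 CPM per kb in *Mkx*-/- libraries, with no overlap. *Lox* held 64% ± 9.04 (WT) and 50% ± 5.71 (*Mkx*-/-) of this sum (SD, n = 3), and *Loxl2* 25.8% ± 9.61 and 28.1% ± 6.3. *Loxl1* went from 1.29% to 5.78%, *Loxl3* from 3.08% to 6.8% and *Loxl4* from 5.8% to 9.37%. *Lox* and *Loxl2* together made up most of the family sum in both genotypes.

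To set enzyme levels beside the substrate, the members were set against *Col1a1*, the alpha 1 chain gene of collagen I, within each library. The mean of *Col1a1* was 185000 ± 49000 CPM (WT) and 116000 ± 29200 CPM (*Mkx*-/-) (SD, n = 3). Its log2 fold change of -0.68 did not pass the test (edgeR adjusted p = 0.287), nor did that of *Col1a2*, -1.02 (adjusted p = 0.0933), but DESeq2 called *Col1a2* downregulated. Per kilobase, the 5 lysyl oxidases together had 1 read for 15.3, 29.9 and 21.2 *Col1a1* reads in WT and for 30.3, 24.3 and 29.6 in *Mkx*-/- libraries, and these ranges overlapped. For *Lox* alone there were 20.5, 50 and 36.7 *Col1a1* reads in WT and 62.4, 43.3 and 65.5 in *Mkx*-/- libraries. The groups, separate for *Lox* by CPM, overlapped on this scale. *Plod2*, *Plod1* and *Fkbp10* went the other way relative to *Col1a1*, by 3.74 on the log2 scale for *Plod2* (13.4-fold), 1.03 for *Plod1* (2.04-fold) and 0.42 for *Fkbp10* (1.34-fold), each with no overlap between the groups. The lower mean of *Col1a1* entered these ratios, since by CPM the log2 fold change was only 0.35 for *Plod1* and was -0.24 for *Fkbp10*. *Plod3* was not set against *Col1a1*.

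**Figure D4:**
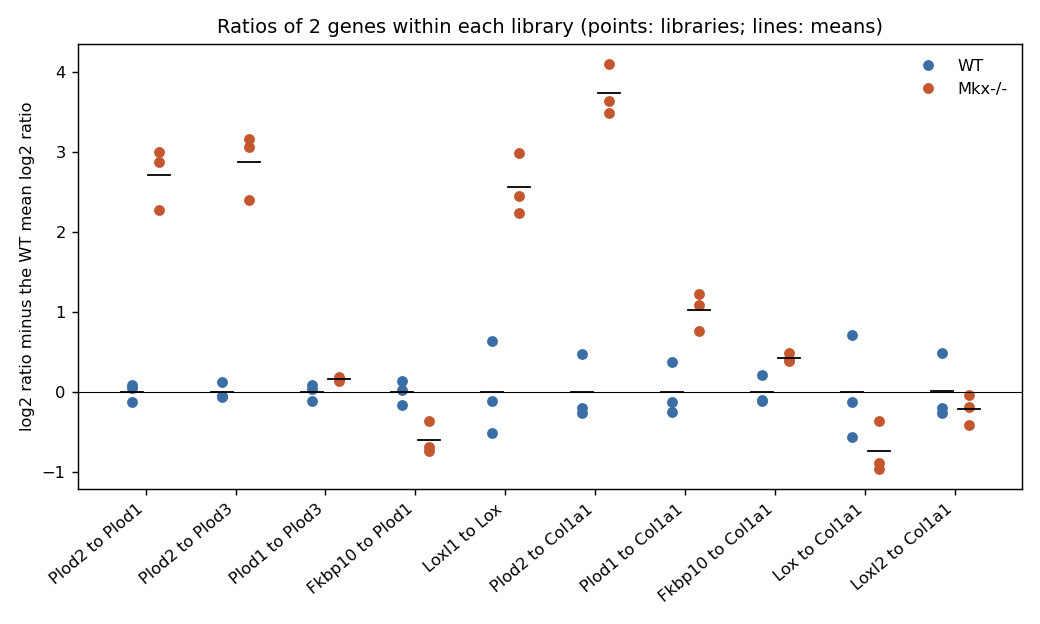
Log2 ratio of counts per kilobase between 2 genes within each of the 3 WT and 3 *Mkx*-/- libraries, relative to the WT mean, with points for libraries and lines for means. The ratios of *Plod2* to *Plod1*, *Plod3* and *Col1a1* and of *Loxl1* to *Lox* are higher in every *Mkx*-/- library, and the ratios of *Lox* and *Loxl2* to *Col1a1* overlap between the genotypes.

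The genes around the members in the pathway were examined from lists of known partners, with edgeR's adjusted p over all tested genes. Among all tested genes 1.89% were upregulated and 1.33% downregulated, the shares to set beside the calls in each list. Of 17 ER partners of collagen lysyl and prolyl hydroxylation, 1 was upregulated and 1 downregulated, and the median log2 fold change was -0.01. *P4ha2*, a catalytic subunit of prolyl 4-hydroxylase, rose from 7.86 ± 2.04 to 19.4 ± 4.41 CPM (SD, n = 3, log2 fold change 1.31, adjusted p = 0.0199), a call lost without WT replicate 3 or *Mkx*-/- replicate 3. *P3h2*, a prolyl 3-hydroxylase listed as *Leprel1*, fell from 89.3 ± 10.2 to 33.8 ± 5.66 CPM (log2 fold change -1.40, adjusted p = 0.00307). *P4ha3* had a log2 fold change of 1.32 that did not pass in edgeR (adjusted p = 0.082) but was called by DESeq2, and *Fkbp9*, a relative of *Fkbp10*, fell by 0.72 on the log2 scale (adjusted p = 0.0422), short of the fold threshold.

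Of the 14 tested genes that activate lysyl oxidases, bind them in the matrix or supply their copper, 2 were upregulated and 1 was downregulated, with a median log2 fold change of 0.04. *Fn1*, which encodes fibronectin, rose from 1010 ± 79.8 to 2930 ± 213 CPM (SD, n = 3, log2 fold change 1.53, adjusted p = 0.00173). *Postn*, which encodes periostin, a scaffold for the activation of LOX by BMP1, rose from 116 ± 29.3 to 326 ± 91.3 CPM (1.49, adjusted p = 0.0165), a call lost without WT replicate 2 or 3. *Adamts2*, a procollagen N-proteinase, fell from 1660 ± 248 to 681 ± 54.3 CPM (-1.29, adjusted p = 0.00462). *Atp7a*, the pump that loads copper into secreted enzymes, had 19.2 ± 7.55 (WT) and 9.4 ± 1.3 CPM (*Mkx*-/-) and did not pass in edgeR (log2 fold change -1.03, adjusted p = 0.0649), but DESeq2 called it downregulated. *Fbln5*, which encodes fibulin-5, a partner of LOXL1 in elastic fibres, rose from 87.5 ± 0.754 to 140 ± 8.79 CPM (0.68, adjusted p = 0.0141), short of the fold threshold. *Tll2*, the 1 listed gene that was not tested, had too few counts.

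Among 10 substrate genes, 3 were upregulated and 1 was downregulated. *Col5a1* and *Col5a2*, the collagen V chains that regulate fibril diameter, rose from 743 ± 140 to 3320 ± 483 CPM (SD, n = 3, log2 fold change 2.16, adjusted p = 0.00141) and from 719 ± 52.7 to 1710 ± 227 CPM (1.25, adjusted p = 0.00445). *Col3a1* rose from 4620 ± 729 to 9810 ± 145 CPM (1.09, adjusted p = 0.0172), a call lost without WT replicate 3 and without *Mkx*-/- replicate 2 or 3. *Col11a2* fell from 4010 ± 816 to 1220 ± 375 CPM (-1.72, adjusted p = 0.0107). The median over the list was 0.06.

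Of 18 hypoxia-inducible genes other than the members, edgeR called 0 upregulated and 0 downregulated, and the median log2 fold change was -0.10. At an unadjusted p under 0.05 in edgeR, 3 were higher and 2 lower, where 12.5% and 10.1% of all tested genes were. DESeq2 called 2 upregulated. *Pdk1*, a kinase that restrains pyruvate oxidation, fell by 0.81 on the log2 scale (edgeR adjusted p = 0.0183), short of the fold threshold. *Adm* (log2 fold change 1.62, adjusted p = 0.0749) and *Slc2a1*, the glucose transporter GLUT1 (1.03, adjusted p = 0.0796), did not pass in edgeR and are the 2 genes DESeq2 called. *Adm* was at or below 11.2 CPM in every library. *Ndrg1*, the most abundant of the 18, did not pass either (log2 fold change 0.76, edgeR adjusted p = 0.0755). Its WT mean was 335 CPM, against 567 CPM for the knockout, with no overlap. Summed over the list, WT libraries stood at 1190 to 1330 CPM, below the knockout libraries at 1440 to 1620 CPM. By gene, 8 of the 18 were higher and 10 lower.

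Of 12 TGF-beta response genes, 10 were higher in *Mkx*-/- tendons, as were 49.5% of all tested genes, 3 were upregulated and 0 downregulated, with a median log2 fold change of 0.51. At an unadjusted p under 0.05, 8 were higher and 0 lower in edgeR, where 12.5% and 10.1% of all tested genes were, and DESeq2 also called 3 upregulated and 0 downregulated. The list was chosen with earlier results of these data known, so these counts are a description and not an independent test. *Ctgf*, a matricellular growth factor, rose from 873 ± 115 to 2010 ± 528 CPM (SD, n = 3, log2 fold change 1.20, edgeR adjusted p = 0.0226), and *Ltbp2*, an elastic microfibril protein, from 16.6 ± 8.76 to 61.1 ± 22.4 CPM (1.88, adjusted p = 0.0351). The calls of *Ctgf* and *Ltbp2* were lost without WT replicate 2 or 3 and without *Mkx*-/- replicate 1 or 2, and that of *Ltbp2* also in a robust fit. Endothelial cells also express some of these genes, and 8 of 10 endothelial markers were higher in *Mkx*-/- libraries (summed 64.4 to 81.4 CPM in WT, 111 to 154 CPM in *Mkx*-/-). *Erg* alone held 44.1, 37.1 and 26.9 CPM of the sums in *Mkx*-/- replicates 1, 2 and 3, and 6.78 to 9.69 CPM in WT. *Pecam1* had 8.88, 9.27 and 27.5 CPM in these replicates and 5.45 to 7.26 CPM in WT. The rise was not shared by every endothelial marker. *Tek*, the most abundant of the 10 in WT, is counted among the 8 but barely moved (log2 fold change 0.02). Its WT mean was 25.9 CPM, against 26.2 CPM for the knockout, and the groups overlapped. The other 2 markers were lower. The part of endothelial cells in the result was not tested.

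**Figure D5:**
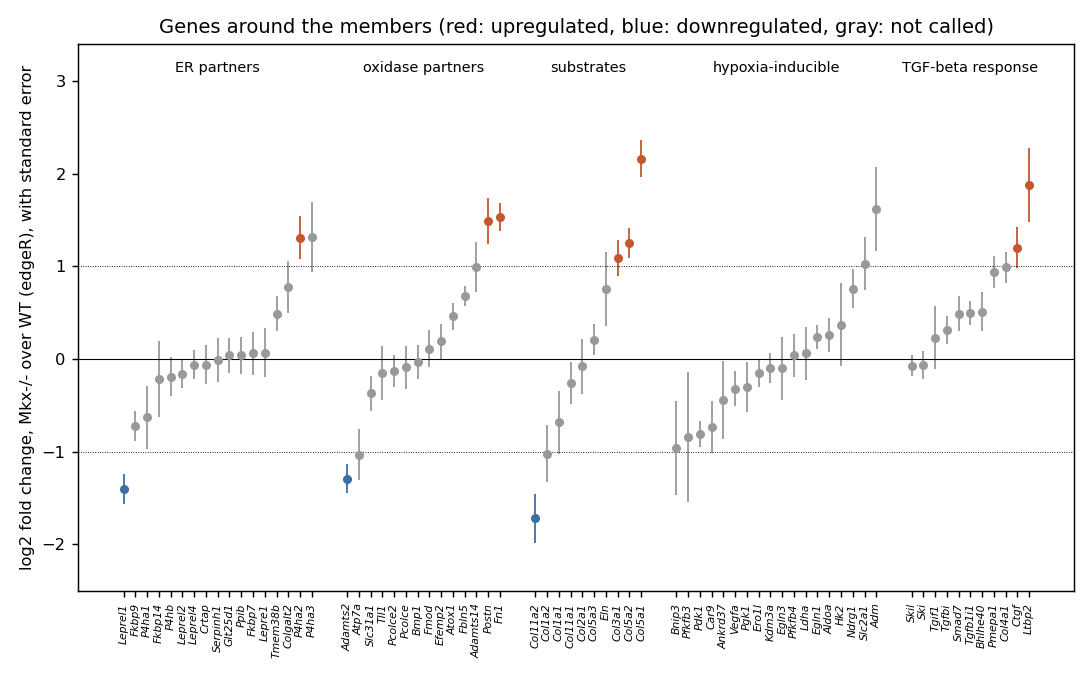
Log2 fold change (*Mkx*-/- over WT) of the tested genes in the 5 pathway lists other than 1 TGF-beta response gene, with standard errors, red where upregulated, blue where downregulated and grey where not called, and dotted lines at the fold thresholds of -1 and 1. The medians of the ER partners, oxidase partners, substrates and hypoxia-inducible genes lie between -0.10 and 0.06, and the 12 TGF-beta response genes have a median of 0.51.

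The genes most like each member over the 6 libraries were found by Pearson's r of log2 CPM among 10294 genes of at least 5 CPM, a measure that the difference between the groups dominates for *Plod2*, *Lox* and *Loxl1*. Those nearest to *Plod2* were *Mink1* (r = 0.997), *Pamr1* (r = 0.996) and *Pcsk5* (r = 0.993), but *Mink1* had a log2 fold change of only 0.38, against 2.21 for *Pamr1* and 1.93 for *Pcsk5*. In all, 179 genes had r above 0.95 with *Plod2*. *Svil*, *Kank1* and *Ddx42* were nearest to *Lox* (r = 0.997 each), and *Rnf126*, *Tnfrsf25* and *Zfp335* to *Loxl1* (r = 0.999, 0.998 and 0.995). *Zfp280b*, *Whrn* and *Fam171b* were nearest to *Loxl2* (r = 0.99 each). *Zfp385a*, *Slc39a3* and *Ptpn1* were nearest to *Plod1*, *Htra2*, *Zbtb7a* and *2610001J05Rik* to *Plod3*, and *Yipf3*, *Csrp2bp* and *Pcdhgc4* to *Fkbp10* (r = 0.982 to 0.993). *Etv6*, *Slc25a51* and *Araf* were nearest to *Loxl4* (r = 0.985 to 0.993). For *Loxl3*, 7 genes passed r of 0.95, led by *Tob2*, *Cep170b* and *Zcrb1*. None of the 3 genes nearest to a member was another member.

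The RefSeq promoter table of build GRCm38.p6 held 3 of the 9 members, *Plod1*, *Plod3* and *Loxl4*, and the others were not analysed here. Both forms of the core of the hypoxia response element, ACGTG and GCGTG, were searched on both strands from 250 bases before to 50 bases after the start. ACGTG occurred 1 time in the *Plod3* promoter and 0 times in those of *Plod1* and *Loxl4*, and 19.6% of the 32851 promoters in the table held it. GCGTG, which was added to the search later, occurred 3 times in *Plod3*, 2 times in *Plod1* and 1 time in *Loxl4*, and 32.4% of promoters held it. Either form was present in all 3 member promoters and in 43.8% of all promoters. A match of these letters is a description and not a binding site.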

How the data were processed

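Raw counts per gene symbol were deposited without normalization by the authors, who sequenced tail tendon RNA on the Ion Proton system and aligned the reads to mm9 with MapSplice. The counting program, its annotation and its use of strand are not given in the sources used here. All 6 columns were used (0 left out). From these counts, edgeR 4.0.16 in R 4.3.3 gave TMM-normalized CPM, a filter on low counts (filterByExpr) and quasi-likelihood tests on genotype alone (robust = FALSE), with Benjamini-Hochberg adjustment over 14550 genes and a prior count of 0.125. The standard error is the log2 fold change divided by the square root of F. The smallest two-sided p of an exact permutation test with 3 libraries a group is 0.1, so p-values come from the model across genes. DESeq2 1.42.0, other scalings, filters, a robust fit, a replicate block and each library left out were the alternatives. The fit was tested on simulated data. Counting error at these depths was smaller than the spread between libraries for every member but *Plod2* in WT. Gene lengths and coordinates come from the GENCODE vM1 annotation of mm9.

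The members and the gene lists were chosen with earlier results of these data known. The text names the 9 members, *Mkx*, and the called genes of 5 pathway lists or up to 4 others with the smallest p in a list. It also names up to 3 genes of 10 marker lists, which were not always the most abundant of their list. The 3 genes most like each member, *Col1a1* and *Col1a2* are named as well. *Sparc*, *Myh11*, *Xist*, *Ddx3y*, *P4ha1*, *Fkbp9*, *Tll2*, *Znhit1*, *Nt5c3b* and *Htra2* were added to the names with their values known. The values of 1 called gene of the TGF-beta list are not reported here, and it is counted but not named or plotted.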

Additional observations from a re-analysis of the deposited data

How the results depend on the processing

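*Plod2* met the upregulated threshold under all 14 alternatives (log2 fold change 2.94 to 3.35), *Lox* the downregulated threshold under 13 (-1.55 to -1.17) and *Loxl1* the upregulated threshold under 12 (0.99 to 1.38). The alternatives reuse the libraries in which the rise of *Plod2* chose the family, so they show only the dependence on processing. Scaling by library size only moved the median of all genes up by 0.25 on the log2 scale. It gave 711 upregulated genes, log2 fold changes of 0.61 for *Plod1*, 0.45 for *Plod3* and 0.37 for *Loxl3*, 3 called hypoxia-inducible genes and 5 called TGF-beta response genes. A filter of 1 count in any library gave 541 upregulated and 322 downregulated genes and 2 called hypoxia-inducible genes, and DESeq2 also called 2 of these. With 1 library left out, the counts ranged from 103 to 321 upregulated genes and from 112 to 248 downregulated genes, lowest without WT replicate 3. Called genes then ranged from 1 to 2 among the ER partners, from 0 to 1 among the hypoxia-inducible genes and from 1 to 3 among the TGF-beta response genes. The causes were not tested.

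Samples with the same replicate number share only a number: their deviations from the group means correlated by 0.07, -0.263 and 0.369, and 3 of 6 libraries correlated best with their own number. With the number as a replicate block, 195 genes were upregulated and 136 downregulated, *Plod2*, *Lox* and *Loxl1* kept their calls (log2 fold changes 3.08, -1.42 and 1.14), and *Col3a1* lost its call. Low depth limits *Plod2* in WT, where 91 to 109 counts leave a counting error of about 9.95%.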
